A study of Mus musculus with 32 samples.

Results

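The homeobox genes of the Hoxa, Hoxb, Hoxc and Hoxd clusters were followed in mouse embryonic fibroblasts that carried an Oct-1 mutation or were wild type, with or without irradiation. Members were all probe sets whose annotation named a single gene with a symbol of Hoxa, Hoxb, Hoxc or Hoxd and a number from 1 to 13. There were 48 such probe sets, 37 from the first array type (array A) and 11 from the second (array B), of 45265 probe sets in all. They covered 33 of the 39 genes of the 4 clusters, out of 18194 genes with a probe set of their own. RNA came from early passage primary fibroblasts, and each of 16 RNA extracts was hybridised to both Affymetrix array types. The 4 groups were Oct-1 mutant irradiated, Oct-1 mutant unirradiated, wild type irradiated and wild type unirradiated, with 4 replicates each. By sex-linked transcripts, given below, mutant extracts were male and wild type extracts female, so genotype and sex cannot be told apart. Oct-1, a transcription factor with a POU domain, is the product of Pou2f1. The labels used here state neither the mutant allele nor the dose and timing of irradiation, nor whether replicates were separate cultures or embryos, so p-values measure only the spread between these samples.

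Hox genes encode homeodomain transcription factors that give cells their position along the body axis. Within each cluster the paralog number follows the order along the chromosome, and low numbers act toward the head (anterior) while high numbers act toward the tail and in distal limbs (posterior). Fibroblasts keep the Hox pattern of the body site they came from in culture, and Polycomb and trithorax complexes hold that pattern. Hox proteins bind DNA together with cofactors of the Pbx and Meis families. Oct-1 binds the octamer motif.

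The Hoxa cluster on chromosome 6 was represented by 16 probe sets for 9 of its 11 genes, and the Hoxb cluster on chromosome 11 by 11 probe sets for 9 of 10 genes. The Hoxc cluster on chromosome 15 had 11 probe sets for 7 of 9 genes, and the Hoxd cluster on chromosome 2 had 10 probe sets for 8 of 9 genes. A further 3 probe sets named several Hox genes and were left out. Of the 48 members, 26 passed the filter on low values (17 of 37 on array A and 9 of 11 on array B) and were tested. These stood for 18 genes. The other 22 probe sets fell below the filter, and for 15 genes no probe set passed: Hoxa2, Hoxa3, Hoxa4, Hoxa7, Hoxa13, Hoxb1, Hoxb5, Hoxb7, Hoxb13, Hoxc9, Hoxc13, Hoxd1, Hoxd10, Hoxd11 and Hoxd12. By place in the cluster, 4 of 11 anterior probe sets (paralogs 1 to 3), 13 of 20 central ones (4 to 8) and 9 of 17 posterior ones (9 to 13) were tested.

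The members that changed included neighbours in the Hoxa cluster (Hoxa9, Hoxa10 and Hoxa11), the last Hoxd gene (Hoxd13) and Hoxd8. The 250 bases before the transcription start are printed for Hoxa9, Hoxd13, Hoxd8 and 1 of the Hoxa10 windows, to set these members beside their promoters. RefSeq windows on GRCm38.p6 were available for 5 of the 9 genes called in any comparison. None was available for Hoxb2, Hoxb6, Hoxc6 and Hoxc8, all of them called higher in the mutant. In the lines that follow, capitals mark the letters TATAAA on either strand in Hoxa10 and Hoxd13 and the first 7 bases of the octamer in Hoxd8. The Hoxa9 window held no match. The Hoxa9 window lies at chr6:52227371-52227620 on the minus strand, the Hoxa10 window at chr6:52234940-52235189 on the minus strand, the Hoxd13 window at chr2:74667975-74668224 on the plus strand and the Hoxd8 window at chr2:74704365-74704614 on the plus strand.
Hoxa9: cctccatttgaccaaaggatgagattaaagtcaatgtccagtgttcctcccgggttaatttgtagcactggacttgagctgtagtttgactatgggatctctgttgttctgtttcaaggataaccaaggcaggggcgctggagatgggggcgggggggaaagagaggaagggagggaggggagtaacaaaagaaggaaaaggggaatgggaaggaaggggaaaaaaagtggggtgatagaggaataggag
Hoxa10: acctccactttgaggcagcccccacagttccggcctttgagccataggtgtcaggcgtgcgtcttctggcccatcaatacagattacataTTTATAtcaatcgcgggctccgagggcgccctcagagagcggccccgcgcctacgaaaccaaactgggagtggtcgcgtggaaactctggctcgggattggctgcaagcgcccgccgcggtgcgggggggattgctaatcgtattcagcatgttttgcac
Hoxd13: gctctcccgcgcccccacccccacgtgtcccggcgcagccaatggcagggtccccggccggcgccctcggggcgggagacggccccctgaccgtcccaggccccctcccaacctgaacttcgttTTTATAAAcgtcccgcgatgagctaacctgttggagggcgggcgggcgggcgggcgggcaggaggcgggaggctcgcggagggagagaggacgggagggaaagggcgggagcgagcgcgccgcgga
Hoxd8: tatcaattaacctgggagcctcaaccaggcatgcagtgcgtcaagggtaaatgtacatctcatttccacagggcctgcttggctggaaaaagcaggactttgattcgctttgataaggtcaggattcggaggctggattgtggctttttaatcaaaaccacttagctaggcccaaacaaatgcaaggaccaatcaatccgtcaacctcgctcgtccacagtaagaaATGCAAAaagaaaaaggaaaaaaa

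The octamer ATGCAAAT was searched on both strands in 24 windows of 22 Hox genes, 19 of them genes with a member probe set. It was found in 0 of the 24 and in 526 of all 32851 promoter windows (1.6%). The 24 windows are too few to tell 0 from that share. Its first 7 bases, ATGCAAA, which also lie within the octamer, were found in the Hoxd8 and Hoxa13 windows and in 4.12% of all windows. In Hoxd8 the match began 24 bases before the start. TATAAA was found in 4 Hox windows, those of Hoxd13, Hoxd4, Hoxa10 and Hoxb8, and in 12.4% of all windows. In Hoxd13 the matches on both strands overlapped, at 124 and 126 bases before the start. In the printed Hoxa10 window the match lay on the opposite strand, 160 bases before the start. A second Hoxa10 window and the Hoxa11 window, neither of them printed, held none of these motifs. A match is a description of the letters only.

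Values are the deposited log2 probe set values, and differences carry their standard error (SE) from the fit with limma. A probe set was called at a Benjamini-Hochberg adjusted p under 0.05 over all probe sets tested on its array type. Levels of different probe sets were not compared. Replicates 1 and 2 carried title numbers of a first run and replicates 3 and 4 of a second run, and differences within each run are given beside the pooled ones. All 6 p53 targets listed as a check of irradiation, Cdkn1a, Mdm2, Ccng1, Pmaip1, Bbc3 and Btg2, rose in irradiated cells of both genotypes. The annotation named 0 probe sets for Pou2f1, so the mutated gene itself was not checked. Of 13 fibroblast markers 13 passed the filter, of 5 endothelial markers 0 passed, and of 5 skeletal muscle markers 1 passed. Markers of other cell types also passed: 4 of 5 neural, 3 of 5 epithelial and 3 of 6 macrophage and blood markers. Of 5 cartilage and bone markers, 3 of them on the arrays, 2 passed.

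Irradiation lowered a small set of Hox genes, and the same 3 probe sets were called in each genotype: Hoxa10, Hoxa9 and Hoxc8. Hoxa9 and Hoxa10 pattern the limbs and reproductive tract and are expressed in blood progenitors, and Hoxc8 patterns the thoracic skeleton and motor neurons. In Oct-1 mutant cells 3 of 17 Hox probe sets on array A were called lower and 0 higher, against 1.84% of all tested array A probe sets called lower and 2.81% higher. In wild type cells 3 of 17 were called lower and 0 higher, against 1.5% and 2.34% of all. On array B 0 of 9 were called in either genotype by limma, where 0.192% of all were called lower and 0.489% higher in the mutant, and 0.163% lower and 0.607% higher in wild type. There 2 of 9 had an unadjusted p under 0.05 in each genotype.

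Hoxa10 (1431475_a_at) read 5.5, 5.2, 5.24 and 4.99 in mutant irradiated cells, against 6.54, 6.48, 6.19 and 5.99 in mutant unirradiated cells. In wild type it read 6.16, 6.15, 5.76 and 6.3 in irradiated cells, against 7.12, 7.25, 7.04 and 6.62 in unirradiated cells. Every irradiated value lay below every unirradiated value of the same genotype. The log2 change was -1.07 (SE 0.16, adjusted p = 0.000945, limma), or 2.09-fold lower, in the mutant. It was -0.92 (SE 0.16, adjusted p = 0.00352), or 1.89-fold lower, in wild type. Within the runs it was -1.16 and -0.97 in the mutant and -1.03 and -0.80 in wild type. A second Hoxa10 probe set on array B (1446408_at), with a mean of 4.79 over all arrays, did not pass, with changes of -0.25 and -0.15.

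Hoxa9 (1455626_at) read 7.18, 7.31, 7.14 and 7.25 in mutant irradiated cells, against 8.12, 8.04, 7.75 and 7.63 in mutant unirradiated cells. In wild type it read 7.63, 7.72, 7.83 and 8.06 in irradiated cells, against 8.52, 8.59, 8.4 and 7.93 in unirradiated cells. The mutant groups did not overlap, and the wild type groups did, through unirradiated replicate 4. The change was -0.66 (SE 0.14, adjusted p = 0.013, limma) in the mutant and -0.55 (SE 0.14, adjusted p = 0.0455) in wild type. The wild type call was lost in 12 of 16 fits that left out 1 extract each, with adjusted p up to 0.146. Within wild type the change was -0.88 in the first run and -0.22 in the second. A second Hoxa9 probe set (1421579_at) lay below the filter.

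Hoxc8 (1452412_at) read 10.05, 9.9, 9.84 and 9.82 in mutant irradiated cells, against 10.59, 10.63, 10.25 and 10.18 in mutant unirradiated cells. In wild type it read 9.24, 9.18, 9.16 and 9.24 in irradiated cells, against 9.63, 9.62, 9.66 and 9.63 in unirradiated cells. None of these groups overlapped. The change was -0.51 (SE 0.09, adjusted p = 0.0033, limma) in the mutant and -0.43 (SE 0.09, adjusted p = 0.0124) in wild type. Within the runs it was -0.64 and -0.39 in the mutant and -0.42 and -0.45 in wild type.

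Averaged over the genotypes, irradiation lowered 4 of 17 Hox probe sets on array A and raised 0, where 5.47% of all tested array A probe sets were called lower and 7.38% higher. On array B 0 of 9 were called, against 0.526% of all lower and 1.61% higher, and 2 had an unadjusted p under 0.05. Hoxa10 fell by 0.99 (SE 0.12, adjusted p = 2.83e-05), Hoxa9 by 0.61 (SE 0.10, adjusted p = 0.000869) and Hoxc8 by 0.47 (SE 0.06, adjusted p = 0.000141) in the limma fit. Hoxa11, a gene of the forearm and uterus, joined them at -0.29 (SE 0.08, adjusted p = 0.0299). Hoxa11 (1420414_at) read 6.49, 6.4, 6.76 and 6.83 in mutant irradiated cells, against 6.91, 6.8, 6.82 and 6.77 in mutant unirradiated cells. In wild type it read 6.85, 6.72, 7.03 and 6.81 in irradiated cells, against 7.49, 7.05, 7.12 and 7.26 in unirradiated cells. The wild type groups did not overlap and the mutant groups did. The Hoxa11 change was -0.45 in the first run and -0.13 in the second, and its call was lost in 8 of 16 fits without 1 extract.

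**Figure D1:**
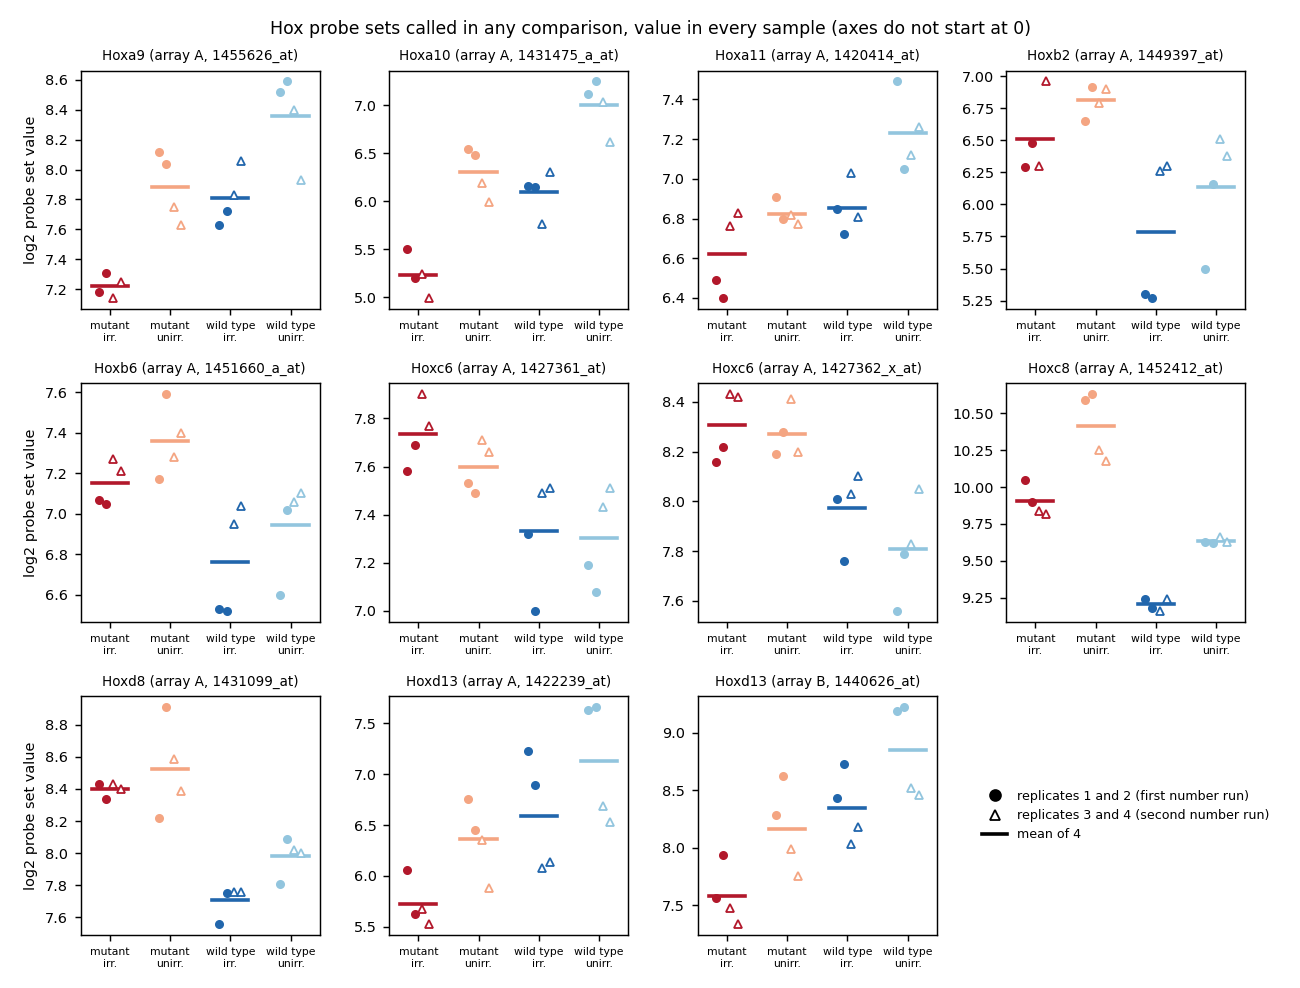
Log2 value of each Hox probe set called in any comparison, in every sample, by group (mutant irradiated, mutant unirradiated, wild type irradiated, wild type unirradiated). Filled circles are replicates 1 and 2, open triangles replicates 3 and 4, and bars the mean of 4. Hoxa10 is lowest in mutant irradiated cells (4.99 to 5.5), and Hoxc8 is higher in all 8 mutant samples than in all 8 wild type samples.

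The replicate block, a fit that takes the replicate number as a block, raised the number of Hox calls for irradiation to 5 in the mutant and 6 in wild type, all lower. In the mutant 4 of 17 were lower on array A, against 5.43% of all, and 1 of 9 on array B, against 0.452% of all. In wild type 5 of 17 were lower on array A, against 4.49% of all, and 1 of 9 on array B, against 0.392% of all. The added members were Hoxd13 on both arrays in each genotype, and Hoxa11 in wild type. Hoxd13, the most posterior gene of its cluster, is required for digits and external genitalia. On array A (1422239_at) it read 6.06, 5.63, 5.67 and 5.53 in mutant irradiated cells, against 6.76, 6.45, 6.35 and 5.88 in mutant unirradiated cells. In wild type it read 7.23, 6.89, 6.08 and 6.14 in irradiated cells, against 7.63, 7.66, 6.69 and 6.53 in unirradiated cells. Within each run every irradiated value lay below the unirradiated values of the same genotype, while across runs the groups overlapped. The change was -0.64 in the mutant (adjusted p = 0.279, and 0.0128 with the replicate block, limma) and -0.54 in wild type (adjusted p = 0.43, and 0.0339 with the block).

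The array B probe set of Hoxd13 (1440626_at), which shares the RNA extracts, read 7.56, 7.94, 7.48 and 7.34 in mutant irradiated cells, against 8.28, 8.62, 7.99 and 7.75 in mutant unirradiated cells. In wild type it read 8.43, 8.73, 8.03 and 8.18 in irradiated cells, against 9.19, 9.22, 8.52 and 8.46 in unirradiated cells. It showed the same order as array A within each run. Its changes were -0.58 in the mutant (adjusted p = 0.543, and 0.00766 with the block, limma) and -0.50 in wild type (adjusted p = 0.664, and 0.0169 with the block). Averaged over the genotypes the block called 7 of 17 Hox probe sets lower on array A, against 11.1% of all, and 2 of 9 on array B, against 1.38% of all. The members it added there were Hoxd13 on both arrays, Hoxc4 (-0.36), Hoxc5 on array A (-0.43) and Hoxb3 on array B (-0.40).

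By place in the cluster, all 9 posterior probe sets tested had a negative averaged irradiation change, with a median of -0.29 and a range from -0.99 to -0.07. Of the 13 central ones 8 were negative, with a median of -0.08, and of the 4 anterior ones 3 were negative, with a median of -0.31. Over all 26 the median was -0.20, and 20 were negative. The median over all tested probe sets was 0.01 on each array, and 48.3% (array A) and 39.7% (array B) of them were negative. By cluster the medians were close, at -0.25 for Hoxa, -0.24 for Hoxb, -0.14 for Hoxc and -0.17 for Hoxd. Hoxa5, which acts in lung and neck development, had changes of 0.00 on array A and 0.04 on array B. Hoxc6 values were 0.08 and 0.10. The probe sets not called ranged from -0.59 to 0.10, with adjusted p from 0.0809 to 0.998 by limma.

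**Figure D2:**
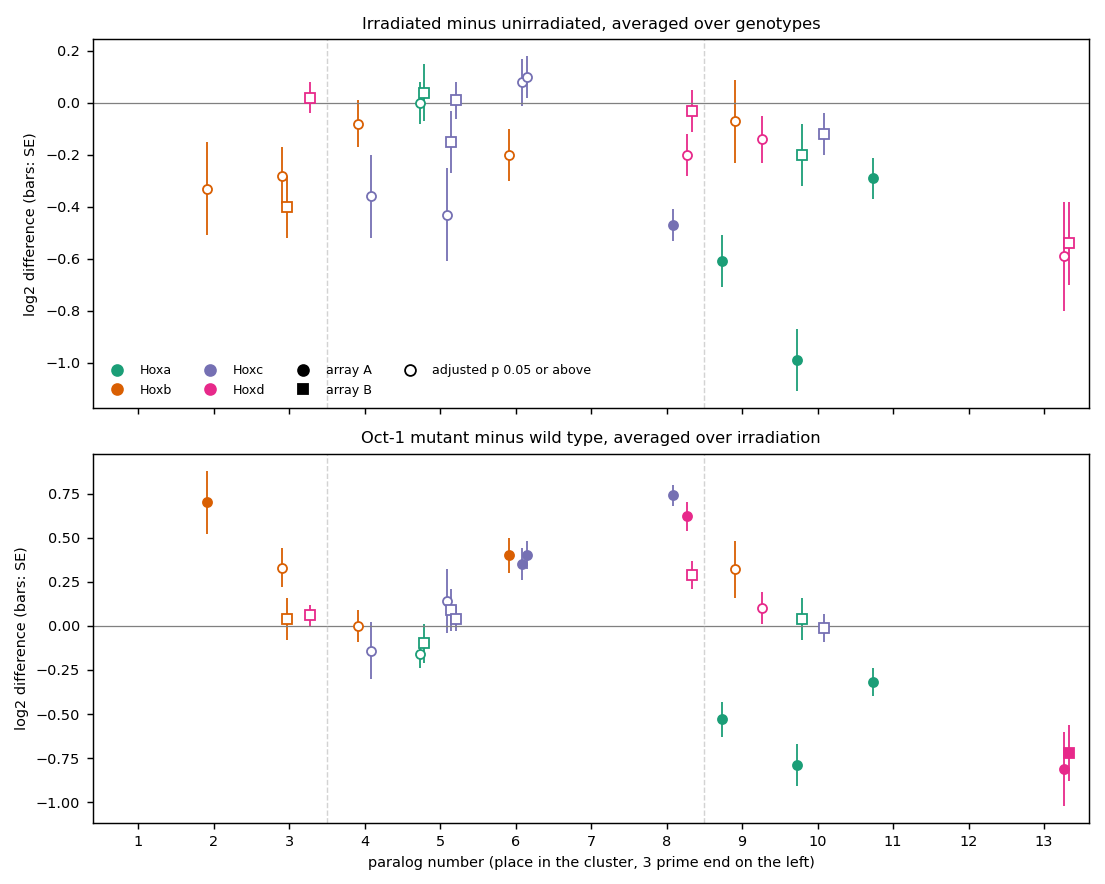
Averaged log2 difference for each of the 26 tested Hox probe sets against paralog number, for irradiated minus unirradiated (above) and Oct-1 mutant minus wild type (below). Colours are clusters, circles array A, squares array B, bars SE, and open symbols an adjusted p of 0.05 or above. In the lower panel the 5 calls below 0 lie at paralogs 9, 10, 11 and 13 and the 6 calls above 0 at paralogs 2, 6 and 8.

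Whether irradiation acted differently in the mutant and in wild type was tested as the difference of the 2 changes. Of the 26 Hox probe sets 0 were called, 0 had an unadjusted p under 0.05, and the background was 0% on each array. The estimates ranged from -0.28 to 0.24, with SE from 0.12 to 0.42. For Hoxa10 the difference was -0.15 (95% interval -0.64 to 0.34), for Hoxa9 -0.12 (-0.55 to 0.32) and for Hoxc8 -0.08 (-0.36 to 0.19). For the array A probe set of Hoxd13 it was -0.09 (-0.99 to 0.80), and for its array B probe set -0.07 (-0.76 to 0.61). Each of these intervals, from the fit without a block, holds 0, and those of Hoxd13 are the widest of the 5. Within the runs the Hoxd13 difference was -0.18 and -0.01 on array A and -0.08 and -0.07 on array B.

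**Figure D3:**
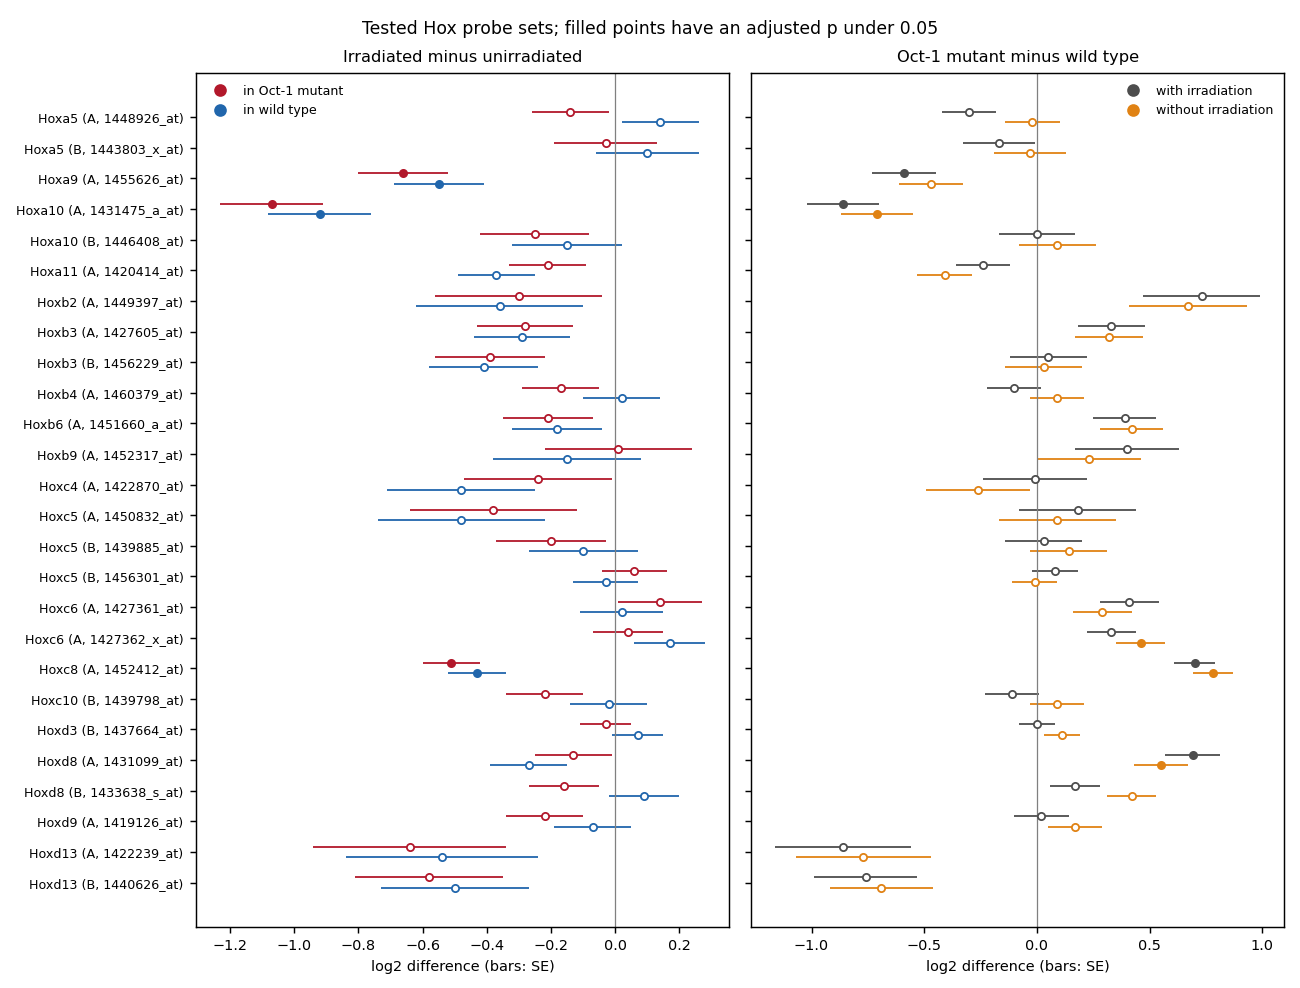
Log2 difference and SE of the 26 tested Hox probe sets, for irradiated minus unirradiated in the Oct-1 mutant and in wild type (left) and for mutant minus wild type with and without irradiation (right). Filled points have an adjusted p under 0.05. Hoxa9, Hoxa10 and Hoxc8 are filled in both genotypes on the left, and Hoxa10, Hoxc8 and Hoxd8 in both irradiation states on the right.

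The genotype groups differed in sex-linked transcripts in every extract. Xist (1427262_at), the RNA that coats the inactive X chromosome of female cells, read 3.16 to 3.29 in the 8 mutant extracts, against 8.19 to 9.78 in the 8 wild type extracts. Eif2s3y (1417210_at), a gene of the Y chromosome, read 8.46 to 9.32 in mutant extracts, against 3.0 to 4.02 in wild type extracts. Mutant extracts thus had the transcripts of male cells and wild type extracts those of female cells. Genotype and sex therefore cannot be told apart in any genotype comparison that follows. Kdm6a, an X-linked demethylase that removes the Polycomb mark from Hox genes, was lower in the mutant on 2 of 3 probe sets tested. It fell by 0.67 (1427672_a_at, SE 0.14, adjusted p = 0.00453) and by 0.74 (1427235_at, SE 0.12, adjusted p = 0.000917) by limma. The probe set not called (1445198_at, array B) read 4.58 to 4.93 in mutant extracts, against 4.35 to 5.4 in wild type extracts.

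**Figure D4:**
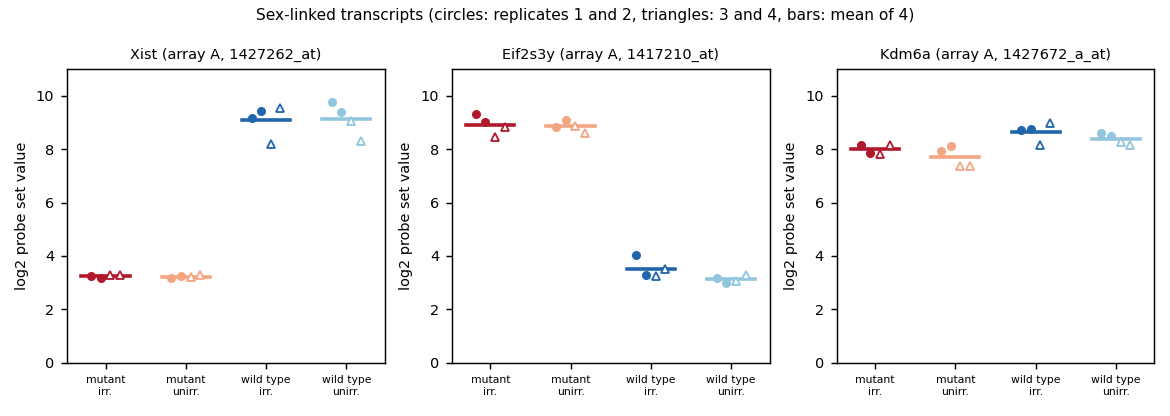
Log2 values of Xist, Eif2s3y and Kdm6a in every sample by group, with circles for replicates 1 and 2, triangles for replicates 3 and 4 and bars for the mean of 4. Xist is near 3 in all mutant samples and above 8 in all wild type samples, and Eif2s3y shows the opposite order.

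Averaged over irradiation, 11 of 26 Hox probe sets differed between mutant and wild type cells. The 5 called lower in the mutant were posterior: Hoxa9, Hoxa10, Hoxa11 and Hoxd13 on both arrays. The 6 called higher were anterior or central: Hoxb2, Hoxb6, Hoxc6 (2 probe sets), Hoxc8 and Hoxd8. On array A 4 of 17 were lower, against 4.01% of all, and 6 of 17 were higher, against 6.57% of all. On array B 1 of 9 was lower, against 0.948%, and 0 of 9 were higher, against 0.955%. Among the 9 posterior probe sets tested 5 were lower and 0 higher, among the 13 central ones 5 were higher and 0 lower, and among the 4 anterior ones 1 was higher and 0 lower. No test was made of that split.

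Among the posterior genes, Hoxa10 was 1.72-fold lower in the mutant (-0.79, SE 0.12, adjusted p = 0.00033, limma). Its values, given with the irradiation results, did not overlap between the genotypes in either irradiation state. The difference was -0.86 with irradiation (adjusted p = 0.00609) and -0.71 without (adjusted p = 0.023), and within the runs it averaged -0.74 and -0.83. The call without irradiation was lost in 5 of 16 fits that left out 1 extract, with adjusted p up to 0.081. The array B probe set of Hoxa10 (1446408_at) stood at 0.04 and was not called, so the probe sets of this gene disagreed. Hoxa9 was 1.45-fold lower (-0.53, SE 0.10, adjusted p = 0.00279). With irradiation it was -0.59 (adjusted p = 0.0313), with no overlap, a call lost in 7 of 16 such fits, and without irradiation -0.47 (adjusted p = 0.0901, and 0.0357 with the replicate block), with overlap.

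Hoxa11 was 1.25-fold lower in the mutant (-0.32, SE 0.08, adjusted p = 0.0202), at -0.38 in the first run and -0.26 in the second. Hoxd13 was 1.76-fold lower on array A (-0.81, SE 0.21, adjusted p = 0.0205) and 1.65-fold lower on array B (-0.72, SE 0.16, adjusted p = 0.0304, limma). On array A the Hoxd13 difference was -1.13 in the first run and -0.50 in the second, and on array B it was -0.79 and -0.66. The array B call was lost in 9 of 16 fits without 1 extract, with adjusted p up to 0.0718. On both arrays the irradiated groups did not overlap and the unirradiated groups did. Of the other posterior probe sets, Hoxd9 stood at 0.10, Hoxc10 at -0.01 and Hoxb9 at 0.32. Hoxb9 did not pass (adjusted p = 0.258), but was called higher with the replicate block (adjusted p = 0.00308), as the 1 posterior member with a call above 0 in that fit.

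Among the genes higher in the mutant, Hoxc8 differed by 0.74 (SE 0.06, adjusted p = 1.37e-06, limma), or 1.67-fold. Each of the 8 mutant values, listed above, exceeded each of the 8 wild type values. The difference was 0.70 with irradiation (adjusted p = 0.000224) and 0.78 without (adjusted p = 7.42e-05), and within the runs it averaged 0.87 and 0.60. Hoxd8 acts in the trunk and kidney. On array A (1431099_at) it read 8.43, 8.34, 8.43 and 8.4 in mutant irradiated cells, against 7.56, 7.75, 7.76 and 7.76 in wild type irradiated cells. Without irradiation it read 8.22, 8.91, 8.59 and 8.39 in mutant cells, against 7.81, 8.09, 8.02 and 8.0 in wild type cells. All 8 mutant values again lay above all 8 wild type values. The averaged difference was 0.62 (SE 0.08, adjusted p = 0.00014), or 1.54-fold, and it was 0.67 in the first run and 0.57 in the second. It was 0.69 with irradiation (adjusted p = 0.00277) and 0.55 without (adjusted p = 0.0157). The call without irradiation was lost without mutant unirradiated replicate 3 (adjusted p = 0.0503) and without wild type unirradiated replicate 1 (adjusted p = 0.0584). A second Hoxd8 probe set on array B (1433638_s_at) stood at 0.29 and did not pass (adjusted p = 0.0888, limma). It was called with the replicate block (adjusted p = 0.0483) and after quantile normalization (0.34, adjusted p = 0.0314).

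Hoxc6 patterns the thoracic region. Its probe set 1427361_at read 7.58, 7.69, 7.9 and 7.77 in mutant irradiated cells, against 7.32, 7.0, 7.49 and 7.51 in wild type irradiated cells. Without irradiation it read 7.53, 7.49, 7.71 and 7.66 in mutant cells, against 7.19, 7.08, 7.43 and 7.51 in wild type cells. The irradiated groups did not overlap, and the unirradiated groups did. The averaged difference was 0.35 (SE 0.09, adjusted p = 0.0182, limma), with 0.43 in the first run and 0.27 in the second. The other Hoxc6 probe set, 1427362_x_at, carries a suffix for probes that can match further transcripts. It read 8.16, 8.22, 8.43 and 8.42 in mutant irradiated cells, against 8.01, 7.76, 8.03 and 8.1 in wild type irradiated cells. Without irradiation it read 8.19, 8.28, 8.41 and 8.2 in mutant cells, against 7.56, 7.79, 7.83 and 8.05 in wild type cells. All 8 mutant values exceeded all 8 wild type values. It differed by 0.40 (SE 0.08, adjusted p = 0.00303), and by 0.46 without irradiation (adjusted p = 0.0265), a call lost in 5 of 16 fits without 1 extract. Another Hoxc6 probe set (1427454_at) lay below the filter.

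Hoxb6 acts in the trunk and in the forelimb region. Its probe set (1451660_a_at) read 7.07, 7.05, 7.27 and 7.21 in mutant irradiated cells, against 6.53, 6.52, 6.95 and 7.04 in wild type irradiated cells. Without irradiation it read 7.17, 7.59, 7.28 and 7.4 in mutant cells, against 6.6, 7.02, 7.06 and 7.1 in wild type cells. The genotypes did not overlap in either state, and the averaged difference was 0.40 (SE 0.10, adjusted p = 0.0173, limma). It was 0.56 in the first run and 0.25 in the second. Hoxb2 patterns the hindbrain. Its probe set (1449397_at) read 6.29, 6.48, 6.3 and 6.96 in mutant irradiated cells, against 5.3, 5.27, 6.26 and 6.3 in wild type irradiated cells. Without irradiation it read 6.65, 6.92, 6.79 and 6.9 in mutant cells, against 5.5, 6.16, 6.51 and 6.38 in wild type cells. The lowest wild type values (5.27 to 5.5) came from the first run. The averaged difference was 0.70 (SE 0.18, adjusted p = 0.0211), with 1.03 in the first run and 0.38 in the second, where it did not pass (adjusted p = 0.108).

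Within each irradiation state fewer genotype calls were made. With irradiation 2 of 17 Hox probe sets on array A were lower (1.18% of all) and 2 were higher (2.62% of all). Without irradiation 1 of 17 was lower (1.27% of all) and 3 were higher (2.59% of all). On array B 0 of 9 were called in either state by limma, with 1 (irradiated) and 2 (unirradiated) at an unadjusted p under 0.05. There 0.163% of all were lower and 0.2% higher with irradiation, and 0.126% lower and 0.311% higher without. The replicate block gave 11 Hox calls in each state and 14 in the average. With irradiation 3 of 17 on array A were lower (4.08% of all) and 7 higher (6.36% of all), and on array B 1 of 9 was lower (0.844% of all) and 0 higher (0.733% of all). The members it added there were Hoxd13, lower on both arrays (adjusted p = 0.00167 and 0.00184, limma), and Hoxb2, Hoxb6, Hoxb9 and both Hoxc6 probe sets, all higher (adjusted p from 0.00521 to 0.037). Without irradiation 4 of 17 on array A were lower (4.67% of all) and 6 higher (6.42% of all), and on array B 1 of 9 was lower (0.874% of all) and 0 higher (0.859% of all). Added there were Hoxa9, Hoxa11 (-0.41, adjusted p = 0.0237) and both Hoxd13 probe sets (adjusted p = 0.00405 and 0.00307), all lower, and Hoxb2 (adjusted p = 0.0234), Hoxb6 (adjusted p = 0.0257) and Hoxc6 1427361_at (adjusted p = 0.0355), all higher. In the average 4 of 17 on array A were lower (10.2% of all) and 8 higher (12.4% of all), and on array B 1 of 9 was lower (3.21% of all) and 1 higher (2.04% of all). The members it added to the average were Hoxb9, Hoxb3 on array A (0.33) and Hoxd8 on array B, all higher. Without irradiation and without the block the count was 4 in the full set, but 1 without mutant unirradiated replicate 3, 1 without wild type unirradiated replicate 1, and 2 without wild type unirradiated replicate 2 or replicate 3.

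By cluster, the averaged genotype difference had a median of -0.24 over the 6 Hoxa probe sets, 0.32 over 6 Hoxb, 0.11 over 8 Hoxc and 0.08 over 6 Hoxd. The median over all tested probe sets was 0.00 on array A and 0.02 on array B. The Hoxd cluster held both directions, with Hoxd8 higher and Hoxd13 lower, while the Hoxa calls were all lower and the Hoxb and Hoxc calls all higher. By place, the medians were 0.19 over 4 anterior, 0.14 over 13 central and -0.32 over 9 posterior probe sets. The probe sets not called ranged from -0.16 to 0.33, with adjusted p from 0.0636 to 0.993. Below the filter, Hoxc9 (1449867_at), with a mean of 4.6, stood apart when no filter was applied, at 0.56 (adjusted p = 0.00762, limma) in the averaged comparison. It is posterior and was higher in the mutant, against the direction of the posterior Hoxa and Hoxd calls. No other member below the filter was called in any comparison.

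The number runs differed in many probe sets of each array, Hox probe sets among them, a comparison added after the values were seen. On array A 6 of 17 Hox probe sets were higher in the first run and 4 lower, against 24.9% and 21.1% of all. On array B 1 of 9 was higher and 0 were lower, against 12.1% and 3.69% of all. Hoxd13 averaged 6.79 in the first run and 6.11 in the second on array A (0.68, SE 0.12, adjusted p = 0.000131, limma) and 8.5 and 7.97 on array B (0.53). Hoxb9, Hoxc5 on array A and Hoxc4 were higher in the first run by 0.48, 0.50 and 0.43. Hoxa10 on array A (0.28, adjusted p = 0.0153) and Hoxc8 (0.13, adjusted p = 0.0488, limma) were also higher in the first run. Hoxb2 was lower in the first run by 0.48 (a difference of -0.48), as were both Hoxc6 probe sets (-0.26 and -0.19) and Hoxb6 (-0.22). The labels do not say what the runs stand for.

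Genes that work with or regulate the Hox clusters were examined from lists, counted over genes in the averaged comparisons. A gene counts where any 1 of its probe sets passed, and a list's median takes 1 probe set a gene. The shares of all probe sets called and the medians over all of them are those given with the averaged comparisons above. Of the Pbx and Meis cofactor list 6 of 9 genes were tested. Irradiation lowered Meis1 (-0.57, SE 0.08) and Meis2 (-0.56, SE 0.12) and raised 0. In the mutant Meis1 (0.70, SE 0.08), Meis2 (0.64, SE 0.12) and Pbx3 (0.25) were higher and Pbx2 (-0.20) was lower. Meis1 passed on 1 of 3 probe sets and Meis2 on 2 of 3 in both comparisons, and Pbx3 and Pbx2 each on 1 of 2. Of the 14 probe sets of this list 3 were lower for irradiation, and for genotype 4 were higher and 1 lower. The list's median was -0.10 for irradiation and 0.24 for genotype. Of 33 Polycomb, trithorax and boundary genes 29 were tested. Irradiation raised Eed (0.45), a core Polycomb subunit, and Scmh1 (0.29), and lowered Bmi1 (-0.40), Cbx6 (-0.35) and the boundary factor Ctcf (-0.42). Bmi1, Cbx6 and Ctcf each passed on 1 of 2 probe sets. In the mutant Cbx6 (0.35) was higher and Kdm6a lower. Of the 57 probe sets of this list 5 were called for irradiation and 3 for genotype, and its medians were -0.01 and -0.04. Of 17 retinoid and Cdx genes 10 were tested. Irradiation lowered the retinol dehydrogenase Rdh10 (-0.40, 1 of 2 probe sets). In the mutant Aldh1a3 (0.47) and Rxra (0.21) were higher, and Crabp2 (-0.79), a retinoic acid binding protein, was lower. Cdx1, Cdx2 and Cdx4, which activate Hox clusters in embryos, were below the filter. Of the 12 probe sets of the retinoid and Cdx list 1 was lower for irradiation, and for genotype 2 were higher and 1 lower. The medians of that list were 0.02 for irradiation and 0.06 for genotype.

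Of 22 genes that flank the clusters 18 were tested. Irradiation lowered Atf2 (-0.36, 1 of 5 probe sets) and Cbx1 (-0.25, 1 of 4), and in the mutant Copz2 (0.31) was higher and Hnrnpa1 (-0.19, 1 of 2) lower. For irradiation 2 of the 37 probe sets of the list were lower, where 5.47% (array A) and 0.526% (array B) of all were lower. For genotype 1 was higher and 1 lower. Of all probe sets 6.57% (array A) and 0.955% (array B) were higher there, and 4.01% and 0.948% lower. The medians were 0.06 for irradiation and 0.02 for genotype. Of 27 other transcription factors that mark body regions 13 were tested. Irradiation lowered En1 (-0.41), Shox2 (-0.43), Tbx15 (-0.63) and Tbx18 (-0.46), and in the mutant En1 (0.60) and Gata6 (0.24) were higher. These were 4 of the 19 probe sets of the list for irradiation and 2 for genotype. Shox2, Tbx15, Tbx18 and Gata6 each passed on 1 of 2 probe sets. The medians were -0.17 for irradiation and 0.05 for genotype. Of the 13 fibroblast markers, irradiation lowered 5 and raised 0 (Pdgfra at -0.72, Pdgfrb, Prrx1, Twist1 and Vim), each on 1 probe set. These were 5 of the 28 probe sets of the list. Prrx1 passed on 1 of 6 probe sets, Pdgfra on 1 of 3, Vim on 1 of 3 and Pdgfrb on 1 of 2, and the list's median was -0.04. In the mutant 6 of 13 were higher and 0 lower, on 6 of the 28 probe sets, with Dcn at 2.01, Lum at 1.46 and a list median of 0.25. Among these 6, Col1a2 and Pdgfra each passed on 1 of 3 probe sets and Col3a1 on 1 of 2. The mean level of the fibroblast list was 11.49 to 11.85 in mutant irradiated, 11.65 to 12.02 in mutant unirradiated, 11.07 to 11.24 in wild type irradiated and 11.30 to 11.40 in wild type unirradiated extracts.

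Of the markers of other cell types, 1 cartilage and bone gene of 2 tested was lower in the mutant (Col2a1, -1.27, SE 0.11), as was 1 neural gene of 4 (Map2). Of 3 epithelial genes 1 was higher (Krt18, 0.46), and of 3 macrophage and blood genes 0 were called. The mean level of the cartilage and bone list was 6.08 to 6.42 over the mutant groups and 6.54 to 7.16 over the wild type groups. The part of these cell type markers in the Hox differences was not tested. In such bulk RNA, fewer cells of a type and less RNA per cell cannot be told apart.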

How the data were processed

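Each of 16 RNA extracts was measured on 2 Affymetrix array types. The authors deposited log2 probe set values for each sample. The log base was read from the range of the values (0.265 to 15.75 on array A), and no source used here names the summarisation or scaling method. No scaling was added, since medians of single arrays spanned only 6.16 to 6.28 (array A) and 3.67 to 3.78 (array B). Genes were named from the platform annotation, with symbols updated by gene identifier.

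Control probe sets were left out. The test kept probe sets whose mean reached the 40th percentile, which was 4.97 for array A (13576 probe sets) and 3.36 for array B (13507 probe sets). The array types were analysed apart from each other in R 4.3.3 with limma 3.58.1 (lmFit and eBayes with an intensity trend, 4 group means, 7 comparisons). The fit was also run on simulated data with noise drawn independently for each array. The simulated data held no shared run differences, so the fit was not checked under them. Summaries and figures used Python 3.11.15, numpy 2.4.6, pandas 2.3.3 and matplotlib 3.10.9. The 4 arrays per group limit the precision. Values in every sample are given for each Hox probe set called in any comparison.

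Same-numbered samples of different groups deviated together from their group means, with correlations of 0.32 to 0.72 for array A and 0.24 to 0.6 for array B. Samples of the same number run with another number did so to a like degree (medians 0.56 and 0.4, against 0.58 and 0.44 for the same number). These values therefore cannot tell pairing by replicate number from a shared run. The main fit used no block, and the replicate number served as a block in an alternative fit. The array A label of mutant unirradiated replicate 1 lacked a replicate number, which came from its array B label through the shared title number. Alternatives were the replicate block, a number run block, each run alone, no filter, quantile normalization and leaving out each extract. The members and gene lists were chosen with earlier results of these data known.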

Additional observations from a re-analysis of the deposited data

Results flagged for a closer look

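Among 44 groups of 4 values checked (11 probe sets in 4 groups), 3 held a value whose gap to its nearest neighbour took up most of the group's range, where chance gives about 1 in 20. Hoxc8 in wild type unirradiated replicate 3 was the highest of its group at 9.66, with a gap of 0.858 of the range. The other values of that group were 9.62 to 9.63. Hoxd8 (1431099_at) in wild type irradiated replicate 1 was the lowest of its group at 7.56, with a gap of 0.913 of the range. Hoxb6 in wild type unirradiated replicate 1 was the lowest of its group at 6.6, with a gap of 0.831 of the range. Each of the 3 values lay below all mutant values of its probe set in the same irradiation state.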

How the results depend on the processing

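Of the 29 calls of named Hox probe sets, 0 reversed under any alternative, and all 29 were kept with the replicate block and with the number run block. No filter ended 2 calls, quantile normalization 1, the first run alone 4 and the second run alone 10. The blocks moved the counts of Hox calls. With the replicate block they were 5 (irradiation in mutant), 6 (irradiation in wild type), 9 (irradiation averaged), 11 (genotype with irradiation) and 11 (genotype without). With the number run block they were 5, 6, 10, 10 and 11 in the same order. In the second run alone the count was 1 for irradiation in wild type and 2 for genotype without irradiation. Leaving out 1 extract gave counts of 3 to 3 for irradiation in the mutant, 2 to 3 in wild type, 3 to 5 averaged, 0 to 0 for the difference of the irradiation changes, 3 to 4 for genotype with irradiation, 1 to 5 without and 10 to 12 averaged. The causes of these moves were not tested. Signal limits the reading of 22 members below the filter.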
